A study of Mus musculus with 6 samples.

Results

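The mitochondrial ribosome, or mitoribosome, is built from proteins that are almost all encoded in the nucleus, and their genes carry the symbols Mrpl (large subunit) and Mrps (small subunit). Protein-coding genes whose symbol starts with Mrpl or Mrps followed by a digit were selected from the deposited expression table by name alone, which gave 78 of the 54532 genes listed, 49 named Mrpl and 29 named Mrps. Their RNA was measured in the hearts of 6 male mice aged 12 weeks on the C57B/6/N background: 3 wild-type mice (WT) and 3 littermates homozygous for a knockout of Mc4r (Mc4r KO), the gene of the melanocortin-4 receptor, which acts in the control of food intake and body weight. The knockout is present in all tissues of the animal, and each library was made from the polyadenylated RNA of 1 mouse. At this age the paper reports a greater body weight and larger cardiomyocyte cross-sections in the Mc4r KO mice, and no significant change in its measures of cardiac function. The comparison asks how the RNA of the heart differs at this stage. Effects of the genotype and of body weight cannot be told apart in this design.

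The mitoribosome translates only the few mRNAs encoded on mitochondrial DNA, which specify core subunits of the respiratory chain and of ATP synthase. Its proteins are made in the cytosol, imported and assembled on 2 ribosomal RNAs that mitochondrial DNA encodes, so a mitoribosome joins the products of both genomes. Heart muscle is rich in mitochondria and depends on oxidative phosphorylation, and inherited defects of several mitoribosomal proteins cause cardiomyopathy in people.

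Some properties of the 6 libraries bear on every value below. Reads counted on genes numbered between 14691076 and 16047003 per library. Mc4r itself was read at 0 FPKM in 5 libraries and at 0.0426 FPKM (2 reads) in WT 3, so its level gave no check of the genotypes. Transcripts of mitochondrial DNA made up 59.3%, 57.4% and 47.1% of all FPKM in WT 1, 2 and 3 and 43.6%, 46.6% and 43.0% in Mc4r KO 1, 2 and 3. The share in WT 3 lay between those of the other WT libraries and those of the Mc4r KO libraries, and its part in the results was not tested. By the read statistics in the paper, WT 1 and WT 2 also stood apart from the other libraries. Their reads had a lower GC share, and a larger part was multi-mapped and a smaller part spliced. The part of these traits in the results was not tested either. The hearts were rich in their defining transcripts, as the summed FPKM of 7 ventricular cardiomyocyte markers ranged from 13800 to 14730 in WT and from 16800 to 18350 in Mc4r KO, with 2 markers higher at an unadjusted p under 0.05. The 5 fibroblast markers summed to between 154.9 and 163.0 in WT and between 118.6 and 132.1 in Mc4r KO, with 2 lower. Those 2 were Pdgfra and Dcn, and Dcn made up most of the sum (mean 119.3 FPKM in WT, 82.4 in Mc4r KO). Col1a1 (log2 fold change 0.44), Col1a2 (0.03) and Postn (-0.32) overlapped between the groups. The 5 erythrocyte markers summed to between 859 and 6344 in WT and between 620 and 1651 in Mc4r KO, with 3 lower. Atrial markers (4 genes) summed to between 28.6 and 747.1 in WT and between 6.29 and 136.3 in Mc4r KO. Skeletal muscle markers (7 genes, Myh4 at 0) summed to between 356.5 and 593.9 and between 574.5 and 959.4. That sum was nearly all Ckm (mean 330.8 FPKM in WT, 367.4 in Mc4r KO) and Acta1 (149.3 and 358.7). Acta1 was the 1 skeletal muscle marker higher at an unadjusted p under 0.05, with overlapping groups. Tnni2 averaged 0.515 and 0.726 FPKM, Tnnt3 0.308 and 0.203, Myh2 0.0154 and 0.0118, and Myh1 0 and 0.00345. Adipocyte markers (5 genes, Lep and Ucp1 at 0) summed to at most 0.45. Markers of endothelium (4 genes, 1 higher), smooth muscle (3 genes) and macrophages (4 genes, 2 lower) had sums that overlapped between the groups. Of all genes tested, 12.0% were higher and 8.83% lower at an unadjusted p under 0.05. No marker on these lists had an adjusted p under 0.05, and the part of the markers in the results was not tested. In bulk tissue, fewer cells of a type and less RNA per cell cannot be told apart.

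Nearly all mitoribosomal protein genes were read at moderate levels in these hearts. FPKM counts sequenced fragments relative to exon length and to a scale set for each library, so levels can be compared between genes. All but Mrpl53 had a mean of at least 1 FPKM, 77 genes in all, with a median of 15.2 FPKM. The most abundant were Mrpl34 (bL34m of the large subunit), Mrps21 (bS21m, small subunit), Mrps23 (mS23, small subunit), Mrpl28 (bL28m, large subunit) and Mrpl42 (mL42, large subunit). In WT these stood at 66.6 ± 11.4, 66.4 ± 17.6, 66.3 ± 2.04, 51.9 ± 8.44 and 51.9 ± 6.73 FPKM (SD, n = 3). Mrpl34, Mrps21 and Mrps23 did not differ among themselves beyond their spread, nor did Mrpl28 and Mrpl42. At the other end, Mrps10 (uS10m) was at 2.39 ± 0.0783 FPKM and Mrps30 at 3.82 ± 0.972 FPKM. Mrpl53 was listed at 0 in all 6 libraries and was not tested. In the GENCODE M21 annotation, 88.0% of the exon sequence of Mrpl53 lies under exons of Gm42688 on the same strand, so reads from Mrpl53 can be lost in the authors' counting.

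Most of these genes were higher in Mc4r KO hearts, by small amounts. Of the 77 tested, 72 had a log2 fold change above 0 (48.8% of all genes tested did) and 5 below. The difference reached an unadjusted p under 0.05 in 45 members, all of them higher (12.0% of all genes tested were higher and 8.83% lower at that threshold). In 45 members all 3 Mc4r KO libraries lay above all 3 WT libraries (14.1% of all genes tested), and in no member did they all lie below (12.4%). The median log2 fold change of the members was 0.32, against -0.01 over all 18035 genes tested, and the median ratio of mean FPKM was 1.25. These counts describe the list and are no test of it. After Benjamini-Hochberg adjustment over all genes tested, limma placed 1 member under 0.05 (0.582% of all genes tested), and that member, Mrps34, also passed the log2 fold change of 0.75 required for a call (0.46% of all genes tested). A further 12 members lay between 0.05 and 0.10, which makes 13 with an adjusted p under 0.10. Of the members, 17 had a log2 fold change above 0.5 and 19 lay between -0.1 and 0.1.

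**Figure D1:**
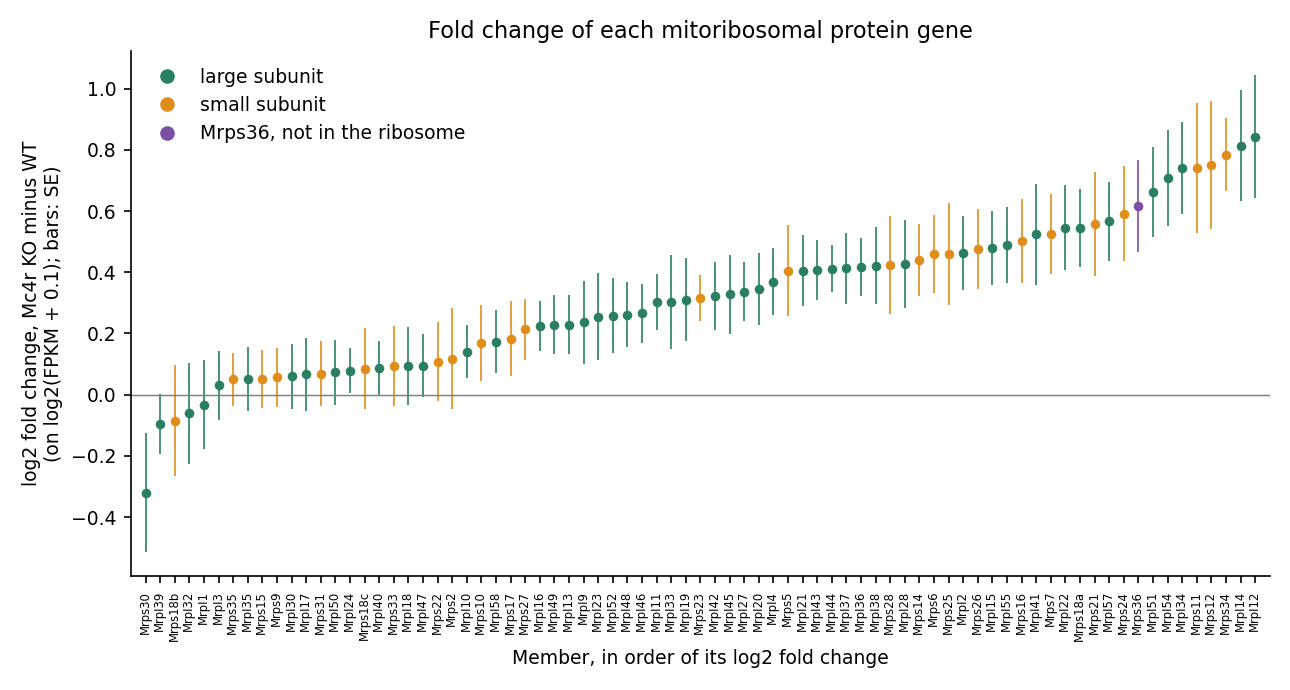
Each point is 1 of the 77 tested members, placed by its log2 fold change (Mc4r KO minus WT, y axis) with its standard error as a bar, in rising order along the x axis. Colour gives the subunit. The 72 members right of Mrpl1 lie above 0, and members of both subunits are found along the whole range up to Mrpl12 at 0.84.

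The difference was seen in every Mc4r KO library, and WT 3 was the WT library nearest to them. Relative to each gene's own mean, the median member stood at -0.20, -0.19 and -0.08 (log2) in WT 1, 2 and 3 and at 0.12, 0.26 and 0.10 in Mc4r KO 1, 2 and 3, so the groups did not overlap in this median. Summed over the members, the FPKM came to 1386, 1411 and 1614 in the WT libraries and to 1877, 2073 and 1843 in the Mc4r KO libraries. Mc4r KO 2 was the highest of all libraries for 57 of the 77 members. WT 3 was the highest WT library for 44 members and the lowest for 22, and in 35 members it lay between the other 2 WT libraries below it and all Mc4r KO libraries above it. As a share of the FPKM from outside the mitochondrial chromosome, the members took 0.641%, 0.654% and 0.661% in WT and 0.759%, 0.784% and 0.705% in Mc4r KO, again without overlap. When the libraries were scaled to that nuclear part, the median log2 fold change was 0.12 for the members and -0.19 for all genes, and 23 members were higher at an unadjusted p under 0.05 (4.93% of all genes) with 0 lower (18.1% of all genes).

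**Figure D2:**
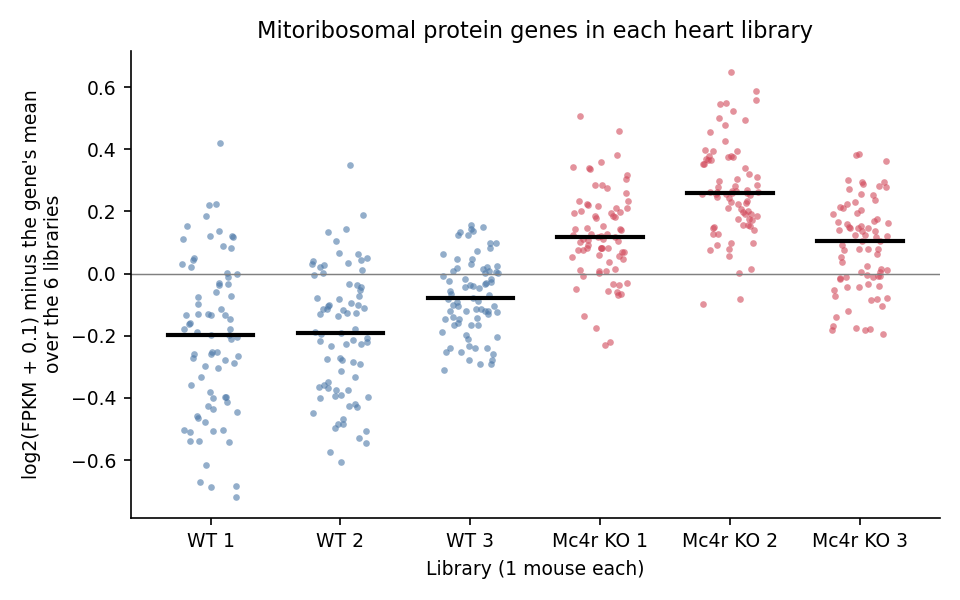
Each point is 1 of the 77 tested members in 1 library: log2(FPKM + 0.1) minus the mean of that gene over the 6 libraries (y axis), with a black bar at the median. The medians lie at -0.20, -0.19 and -0.08 in the WT libraries and at 0.12, 0.26 and 0.10 in the Mc4r KO libraries.

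The largest differences were those of 6 genes from both subunits. Mrpl12 encodes bL12m, the stalk protein of the large subunit through which translation factors are recruited. It stood at 28.7, 30.3 and 47.2 FPKM in WT 1, 2 and 3 and at 59.3, 72.5 and 55.3 FPKM in Mc4r KO 1, 2 and 3. All Mc4r KO libraries were above all WT libraries, with WT 3 the nearest, and the log2 fold change of 0.84 (SE 0.20) had an adjusted p of 0.0992. Mrpl14 (uL14m, at the face of the large subunit that meets the small one) read 28.2, 31.0 and 45.4 FPKM in WT and 55.9, 66.7 and 58.2 FPKM in Mc4r KO. Its groups did not overlap either, with WT 3 again closest, and its log2 fold change was 0.81 (SE 0.18, adjusted p = 0.0871). The exons of Mrpl12 (mm10, chr11:120484613-120489065) and Mrpl14 (chr17:45686322-45698495) are covered over 13.1% and 11.2% of their length by Gm16755 and Tmem63b on the opposite strand. Gm16755 was at most at 0.200 FPKM in any library, while Tmem63b was higher without overlap in Mc4r KO (log2 fold change 0.38, adjusted p = 0.0813). The sources used here do not state whether counting used strand, so reads from such stretches cannot be assigned with certainty.

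Mrps34 (mS34, a small subunit protein found in mitochondria but not in bacteria) was the member that passed the threshold. Its FPKM was 9.28, 10.2 and 11.4 in WT and 19.3, 18.6 and 15.7 in Mc4r KO, with every Mc4r KO library well above every WT library. It rose by a log2 fold change of 0.78 (SE 0.12), with an adjusted p of 0.0479 that moved between 0.0121 and 0.233 over the 19 alternative analyses and stayed under 0.05 in 6 of them. Mrps34 (chr17:24895116-24897502, forward strand) is also the member with the least certain reads among those named here as higher. Exons of Mapk8ip3 on the opposite strand cover 63.4% of its exon sequence, exons of Nme3 on the same strand cover 37.0%, and 71.8% of its 50-base words occur in transcripts of these genes. Nme3 was listed at 0 in all 6 libraries, but as with Mrpl53, reads from it can be lost in the authors' counting. Mapk8ip3 had a log2 fold change of 0.44 (SE 0.11, adjusted p = 0.0992) without overlap between the groups. The part of Nme3 and Mapk8ip3 in the value of Mrps34 was not tested.

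Mrpl34, Mrps12 and Mrps11 completed the group. Mrpl34, the most abundant member and the shortest with 607 bases of exon sequence, read 55.6, 65.7 and 78.5 FPKM in WT and 96.6, 124.7 and 111.0 FPKM in Mc4r KO, a log2 fold change of 0.74 (SE 0.15, adjusted p = 0.0756). Mrps12 encodes uS12m of the decoding centre of the small subunit. It read 14.8, 17.1 and 26.1 FPKM in WT and 29.2, 36.7 and 29.6 FPKM in Mc4r KO, a log2 fold change of 0.75 (SE 0.21, adjusted p = 0.122). For both genes the groups did not overlap, no exon of another gene covers theirs and no 50-base word is shared, so their reads were free of the doubt raised for Mrps34. Mrps11 (uS11m of the small subunit platform) read 4.25, 4.55 and 7.49 FPKM in WT and 8.63, 9.70 and 8.27 FPKM in Mc4r KO, with a log2 fold change of 0.74 (SE 0.21, adjusted p = 0.124). Mrps11 shares its 5′ end with Mrpl46 on the opposite strand, over 7.97% of its exons. Mrpl46, named for this overlap alone, had a log2 fold change of 0.27 (adjusted p = 0.186).

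**Figure D3:**
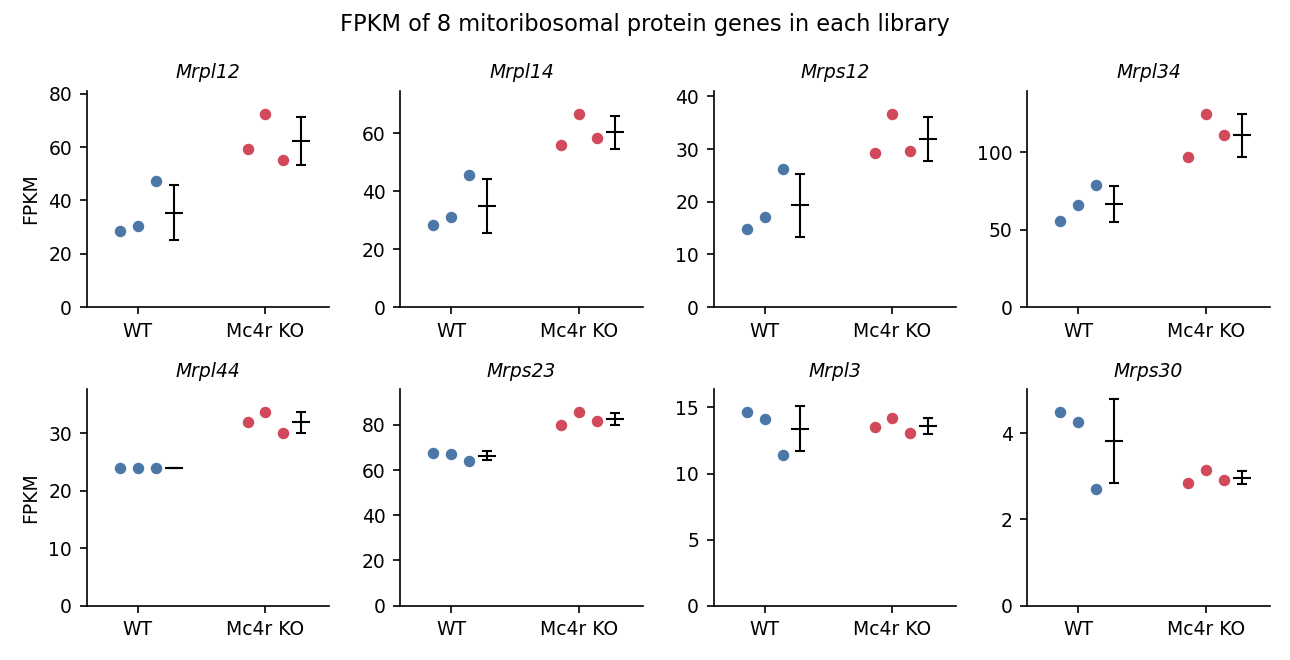
FPKM (y axis, from 0) of 8 members in the 3 WT (blue) and 3 Mc4r KO (red) libraries, with the mean and SD beside each group. Mrpl12, Mrpl14, Mrps12, Mrpl34, Mrpl44 and Mrps23 show no overlap between the groups, while Mrpl3 and Mrps30 overlap.

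Members whose human counterparts are linked to inherited cardiomyopathy did not share a level of difference. Mrpl44 (mL44 of the large subunit) was the most even of them, at 23.9 FPKM in each WT library and at 32.0, 33.7 and 30.0 FPKM in Mc4r KO. The log2 fold change was 0.41 (SE 0.08), and the adjusted p of 0.0663 was the lowest of any gene named Mrpl. Exons of Wdfy1 on the opposite strand cover 7.66% of those of Mrpl44. Wdfy1 read 1.03, 1.19 and 1.05 FPKM in WT and 4.35, 4.46 and 4.21 FPKM in Mc4r KO (log2 fold change 1.90, adjusted p = 0.00228), and its part in the value of Mrpl44 was not tested. Mrps14 (uS14m, small subunit head) read 9.38, 8.55 and 11.3 FPKM in WT and 13.3, 13.6 and 12.7 FPKM in Mc4r KO, without overlap (log2 fold change 0.44, SE 0.12, adjusted p = 0.111). Mrps22 (mS22, small subunit) and Mrpl3 (uL3m, large subunit) overlapped between the groups, at 4.53 ± 0.629 against 4.87 ± 0.259 FPKM and at 13.4 ± 1.72 against 13.6 ± 0.591 FPKM (SD, n = 3). Their log2 fold changes were 0.11 (interval -0.19 to 0.41) and 0.03 (interval -0.23 to 0.30), with intervals at the 95% level, and their adjusted p-values were 0.668 and 0.907.

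Among the remaining abundant genes, Mrps23 was even within the groups, with 67.6, 67.3 and 63.9 FPKM in WT and 80.1, 85.6 and 81.8 FPKM in Mc4r KO. That gave a log2 fold change of 0.32 (SE 0.07, adjusted p = 0.0966). Mrps21 read 55.6, 57.0 and 86.8 FPKM in WT and 96.2, 94.5 and 96.7 FPKM in Mc4r KO, so its log2 fold change of 0.56 (SE 0.17, adjusted p = 0.137) went with a wide spread in WT. Mrpl42 had a log2 fold change of 0.32 (adjusted p = 0.172) without overlap. Mrpl28 had 0.43 (adjusted p = 0.162), with its lowest Mc4r KO library (60.2 FPKM) just under its highest WT library (60.7 FPKM).

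In none of the 5 members below 0 did the difference reach an unadjusted p under 0.05 by limma. Mrps30, despite its name the protein mL65 of the large subunit, read 4.49, 4.26 and 2.70 FPKM in WT and 2.84, 3.14 and 2.93 FPKM in Mc4r KO. Its log2 fold change of -0.32 (SE 0.20, adjusted p = 0.400) was carried by WT 1 and WT 2, while WT 3 was the lowest of the 6 libraries. Over the 19 alternative analyses the adjusted p of Mrps30 lay between 0.0362 and 0.704 and was under 0.05 in 1 of them. Mrpl39 (mL39) had a log2 fold change of -0.10 (SE 0.10), Mrps18b -0.09 (SE 0.18), Mrpl32 (bL32m, which is processed by the mitochondrial m-AAA protease before it joins the ribosome) -0.06 (SE 0.16) and Mrpl1 (uL1m of the large subunit stalk) -0.03 (SE 0.15). In all 5 the groups overlapped, and their adjusted p-values lay between 0.400 and 0.927.

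Higher values were found among genes of both subunits. Of all genes tested, 48.8% were above 0 and 12.0% were higher at an unadjusted p under 0.05. Of the genes named Mrpl, 45 of 48 tested were above 0 and 29 were higher at an unadjusted p under 0.05, with a median log2 fold change of 0.31. For the genes named Mrps the counts were 27 of 29 and 16, with a median of 0.41. With scaling outside the mitochondrial chromosome, 11 genes named Mrpl and 12 named Mrps were higher at that threshold (4.93% of all genes). By the place of the protein in the ribosome, which moves Mrps18a (mL66) and Mrps30 to the large subunit, the medians were 0.31 for 50 large subunit genes and 0.36 for 26 small subunit genes. Proteins with a bacterial counterpart (46 tested, 44 above 0, 26 at an unadjusted p under 0.05, median 0.32) and proteins found in mitochondria but not in bacteria (28 tested, 26 above 0, 17 at an unadjusted p under 0.05, median 0.29) had close medians, and no difference between these classes was tested. Among the 38 members with no exon under another gene and under 5% of shared 50-base words, 35 were above 0, 21 were higher at an unadjusted p under 0.05 and the median was 0.31.

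The paralogues of ribosomal protein S18 and Mrps36 are special cases of the naming. Mrps18c encodes bS18m in the small subunit and was at 10.1 ± 0.859 FPKM in WT and 10.7 ± 1.63 FPKM in Mc4r KO (log2 fold change 0.09, adjusted p = 0.753). Exons of Gm43511 on the same strand cover 23.2% of it. Mrps18b, in the small subunit as well, was at 5.89 ± 0.977 and 5.57 ± 1.16 FPKM (SD, n = 3), and Gm16279 on the opposite strand covers 30.5% of its exons. Mrps18a, in the large subunit, read 9.34, 10.02 and 9.88 FPKM in WT and 12.9, 17.3 and 13.1 FPKM in Mc4r KO without overlap, a log2 fold change of 0.55 (SE 0.13, adjusted p = 0.0953). Mrps36, now also named Kgd4, is a subunit of the oxoglutarate dehydrogenase complex and no ribosomal protein. It read 23.5, 22.2 and 30.2 FPKM in WT and 33.6, 44.6 and 38.0 FPKM in Mc4r KO, with a log2 fold change of 0.62 (SE 0.15, adjusted p = 0.0999).

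Gene length, base composition and level went along with the size of the difference, inside the list and outside it. The members are short, with a median of 2214 bases of exon sequence against 4296 for all protein-coding genes tested. Across the 77 members, Spearman's rho of the log2 fold change was -0.43 with length, 0.52 with the GC share of the exons and 0.40 with mean FPKM. Across the protein-coding genes tested the same values were -0.23 (n = 13546), 0.39 (n = 13533) and 0.27 (n = 13546). All genes share the same 6 libraries, and these coefficients are a description across genes. Within length classes the members still had higher medians than protein-coding genes of their class. Under 1500 bases the medians were 0.46 (21 members) and 0.20, from 1500 to 3000 bases 0.32 (27 members) and 0.08, and from 3000 bases on 0.18 (29 members) and -0.04. The share higher at an unadjusted p under 0.05 was 85.7%, 59.3% and 37.9% of the members in these classes, against 24.3%, 20.2% and 10.6% of the protein-coding genes. With the trend of each library with length removed, 40 members were higher at that threshold (11.4% of all genes tested), and with the GC trend removed, an alternative chosen after seeing the data, 46 (11.2% of all genes tested).

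**Figure D4:**
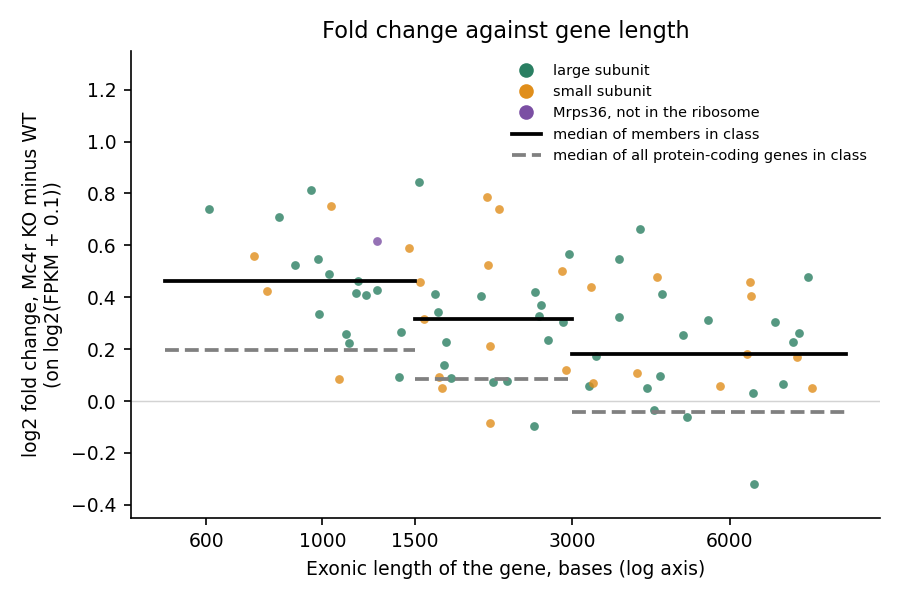
Log2 fold change (Mc4r KO minus WT, y axis) of the 77 tested members against the exonic length of the gene (x axis, log scale), coloured by subunit. Black lines give the members' median in each of 3 length classes (0.46, 0.32 and 0.18) and grey dashed lines that of all protein-coding genes tested (0.20, 0.08 and -0.04).

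The members lie on 17 chromosomes, and their start regions hold some short motifs more often than those of other genes. A window from 250 bases before to 50 bases after the start was available from RefSeq (GRCm38.p6) for 69 members. The ETS core CCGGAAG, the element bound by NRF-2/GABP, was found on either strand in 36.2% of these windows, against 9.12% of all 27025 windows and 17.4% of those of genes tested here. The YY1 core AAGATGGC was found in 17.4% (2.88% of all windows, 4.44% of those of tested genes) and the NRF1 core GCGCATGC in 11.6% (2.80% and 5.19%). At least 1 of these 3 was present in 37 member windows (53.6%), against 13.8% of all windows and 24.7% of those of tested genes. The CCAAT box CCAAT (39.1% against 37.9% of all windows) and the E-box CACGTG (7.25% against 7.24%) were about as frequent as elsewhere, the GC box GGGCGG was found in 49.3% (35.9% of all, 63.2% of those of tested genes) and the TATA box TATAAA in 5.80% (14.2% and 7.32%).

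Members with and without a motif overlapped in their differences. The median log2 fold change was 0.33 in the 24 tested members with an ETS core and 0.26 in the 44 without it. For the YY1 core these values were 0.42 (12 members) and 0.26 (56 members), and for the NRF1 core 0.10 (8 members) and 0.33 (60 members). The windows of Mrpl12 and Mrpl14, the members with the largest differences, held none of the 3. Windows are printed here for 3 members that were higher without overlap and for Mrpl32, which held the most matches and had a log2 fold change of -0.06. All are 5′ to 3′ on the strand of the gene, with matches to the ETS, YY1 and NRF1 cores on either strand in capitals. A match is a description of the letters and not evidence of binding.
Mrpl34 (chr8:71464676-71464975, forward strand, 1 ETS core): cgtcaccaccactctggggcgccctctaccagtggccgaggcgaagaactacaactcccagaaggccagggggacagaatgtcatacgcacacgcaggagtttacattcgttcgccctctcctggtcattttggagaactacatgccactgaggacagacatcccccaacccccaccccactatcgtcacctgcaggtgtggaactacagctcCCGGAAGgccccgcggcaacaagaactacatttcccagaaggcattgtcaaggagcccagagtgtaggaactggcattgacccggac
Mrps12 (chr7:28741772-28742071, reverse strand, 1 YY1 core and 1 ETS core): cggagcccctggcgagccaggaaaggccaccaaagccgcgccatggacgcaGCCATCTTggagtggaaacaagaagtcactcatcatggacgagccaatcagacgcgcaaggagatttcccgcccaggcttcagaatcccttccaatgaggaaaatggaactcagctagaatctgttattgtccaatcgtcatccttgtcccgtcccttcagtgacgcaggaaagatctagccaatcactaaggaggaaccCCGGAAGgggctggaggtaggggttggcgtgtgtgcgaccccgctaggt
Mrps18a (chr17:46110754-46111053, forward strand, 1 ETS core and 1 YY1 core): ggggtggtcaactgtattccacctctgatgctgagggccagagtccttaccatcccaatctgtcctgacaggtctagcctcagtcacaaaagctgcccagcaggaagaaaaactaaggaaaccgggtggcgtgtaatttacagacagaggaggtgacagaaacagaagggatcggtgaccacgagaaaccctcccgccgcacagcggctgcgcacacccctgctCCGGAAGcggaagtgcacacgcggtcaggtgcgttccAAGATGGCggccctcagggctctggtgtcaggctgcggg
Mrpl32 (chr13:14612988-14613287, reverse strand, 1 YY1 core and 4 NRF1 cores, of which 2 overlap on opposite strands): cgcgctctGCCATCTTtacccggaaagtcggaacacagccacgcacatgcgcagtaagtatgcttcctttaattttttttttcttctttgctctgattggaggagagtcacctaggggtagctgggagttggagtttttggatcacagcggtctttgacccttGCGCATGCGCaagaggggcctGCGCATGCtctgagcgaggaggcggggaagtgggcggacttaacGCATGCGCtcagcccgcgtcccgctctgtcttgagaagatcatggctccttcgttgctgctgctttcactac

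Many of these genes share their start region with a neighbour read in the opposite direction. In GENCODE M21, 18 of the 78 members (23.1%) have such a protein-coding neighbour starting within 1000 bases, against 9.6% of 13518 protein-coding genes tested. The median log2 fold change was 0.02 over the neighbours and 0.32 over their members. Of the 18 neighbours, 10 were above 0 (48.8% of all genes tested). At an unadjusted p under 0.05, 3 were higher (12.0% of all genes tested) and 0 lower (8.83%). The 3 were Sars2, Apba3 and Klc4. Sars2 encodes the mitochondrial seryl-tRNA synthetase and starts 172 bases from Mrps12, inside the window printed above. It read 2.01, 1.93 and 2.64 FPKM in WT and 3.25, 3.34 and 2.86 FPKM in Mc4r KO, with a log2 fold change of 0.51 (SE 0.15, adjusted p = 0.132). Apba3, an adaptor protein gene 26 bases from Mrpl54, had a log2 fold change of 0.65 (adjusted p = 0.108), and Klc4, a kinesin light chain gene 207 bases from Mrpl2, had 0.47 (adjusted p = 0.123). Eme2, which starts 29 bases from Mrps34, had a log2 fold change of -0.27 (adjusted p = 0.406).

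Other genes of mitochondrial gene expression showed smaller median differences than the ribosomal proteins, and none of the genes on these lists had an adjusted p under 0.05 by limma (0.582% of all genes tested did). The lists were written from general knowledge of the pathway, but with earlier results of these data known. With scaling outside the mitochondrial chromosome, where the median of all genes was -0.19, the median log2 fold change turned below 0 for the translation factors (-0.03, 1 higher and 1 lower at an unadjusted p under 0.05), for assembly and rRNA modification (-0.08, 1 higher and 2 lower), for the tRNA synthetases (-0.07, 0 higher and 0 lower) and for transcription and mRNA stability (-0.11, 0 higher and 2 lower). Under that scaling it was 0.05 for the mitoribosomal proteins with other names (0 higher and 1 lower) and -0.21 for the regulators (1 higher and 2 lower). Of all genes tested with it, 4.93% were higher and 18.1% lower at an unadjusted p under 0.05. The values that follow are on the deposited scale, where 12.0% of all genes tested were higher and 8.83% lower at an unadjusted p under 0.05. Of 5 mitoribosomal proteins with other names, 4 were above 0 (median log2 fold change 0.25, 1 higher at an unadjusted p under 0.05). Gadd45gip1 (mL64), the furthest of them, read 6.46, 6.48 and 9.91 FPKM in WT and 10.6, 12.3 and 9.65 FPKM in Mc4r KO, with 1 Mc4r KO library under the highest WT library, a log2 fold change of 0.53 (SE 0.19) and an adjusted p of 0.176. Chchd1 (mS37) had 0.29 (adjusted p = 0.349).

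Of 14 mitochondrial translation factors, 5 were higher and 1 was lower at an unadjusted p under 0.05, with a median log2 fold change of 0.16. Taco1, a translational activator of the cytochrome c oxidase subunit COX1, read 24.3, 24.0 and 30.2 FPKM in WT and 35.4, 41.9 and 35.0 FPKM in Mc4r KO (log2 fold change 0.52, SE 0.12, adjusted p = 0.0966). Tsfm, the elongation factor Ts, had a log2 fold change of 0.47 (SE 0.14, adjusted p = 0.132). Both were without overlap between the groups. Of 27 genes of mitoribosome assembly and rRNA modification, 19 were above 0 but 2 were higher at an unadjusted p under 0.05 and 0 lower, with a median of 0.11. The rRNA methyltransferases Mrm2 and Mrm3 had the largest log2 fold changes there, 0.62 (SE 0.19, adjusted p = 0.141) and 0.46 (SE 0.26, adjusted p = 0.361).

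Of the 17 mitochondrial aminoacyl-tRNA synthetases (median log2 fold change 0.12), 15 were above 0 and 3 higher at an unadjusted p under 0.05. Sars2, described above, had the largest value, followed by Lars2 with 0.49 (SE 0.51, adjusted p = 0.616). None of the 13 genes of mitochondrial transcription and mRNA stability reached an unadjusted p under 0.05 by limma (median 0.08), and the largest values were those of Slirp, an RNA-binding protein that stabilises mitochondrial mRNAs (0.33, adjusted p = 0.747, from 1 to 14 reads per library), and of Twnk, the helicase of mitochondrial DNA (0.27, adjusted p = 0.284). Of 9 regulators of mitochondrial gene programmes (median -0.02), 2 were higher and 2 lower at an unadjusted p under 0.05. Esrra, the nuclear receptor ERRα, read 29.0, 31.6 and 64.9 FPKM in WT and 71.9, 84.8 and 71.4 FPKM in Mc4r KO, with a log2 fold change of 0.96 (SE 0.29, adjusted p = 0.135) and WT 3 close to the Mc4r KO libraries. Pprc1, a coactivator of the PGC-1 family, had a log2 fold change of -0.40 (SE 0.16, adjusted p = 0.217).

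Subunits of the respiratory chain and of ATP synthase that the nucleus encodes are assembled together with the products of the mitoribosome. The median log2 fold change over the 84 tested was 0.34, close to that of the members, with 76 above 0 (48.8% of all genes tested). At an unadjusted p under 0.05, 46 were higher (12.0% of all genes tested) and 0 lower (8.83%). With scaling outside the mitochondrial chromosome the median was 0.14, with 21 higher (4.93% of all genes) and 2 lower (18.1%). Atp5k, a short subunit e gene of ATP synthase, had the largest value of them at 1.64 (SE 0.56, adjusted p = 0.168), and its WT libraries were far apart at 59.5, 52.7 and 262.9 FPKM, against 271.1, 317.9 and 291.6 FPKM in Mc4r KO. Ndufa2 of complex I followed with 1.20 (SE 0.39, adjusted p = 0.155). The 83 cytosolic ribosomal proteins tested had a median of 0.16, with 24 higher and 4 lower at an unadjusted p under 0.05 (12.0% and 8.83% of all genes tested). Under the other scaling their median was -0.03, with 10 higher and 17 lower (4.93% and 18.1% of all genes). On the deposited scale, furthest from 0 were Rpl7a (1.07, adjusted p = 0.166) and Rpl39l (1.16, adjusted p = 0.325), the latter near the floor with 0, 1 and 2 reads in WT and 6, 5 and 1 reads in Mc4r KO.

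Most RNAs encoded on mitochondrial DNA lay below 0. The 2 ribosomal RNAs of the mitoribosome itself were lower in every Mc4r KO library than in every WT library. The small subunit rRNA mt-Rnr1 read 2549, 2411 and 1913 FPKM in WT and 1332, 1253 and 1004 FPKM in Mc4r KO, a log2 fold change of -0.94 (SE 0.18, adjusted p = 0.0663). The large subunit rRNA mt-Rnr2 read 4525, 5194 and 2895 FPKM in WT and 2442, 2653 and 2033 FPKM in Mc4r KO, a log2 fold change of -0.79 (SE 0.25, adjusted p = 0.147). Of the 13 mRNAs, 10 were below 0 and 2 lower at an unadjusted p under 0.05 (8.83% of all genes tested), with a median of -0.38. The furthest from 0 were mt-Nd3 (-1.34, SE 0.75, adjusted p = 0.357) and mt-Atp8 (0.77, SE 0.46, adjusted p = 0.392). Libraries enriched for polyadenylated RNA hold these RNAs only as far as they carry or are next to adenine-rich ends, so their levels are not those of whole RNA.

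**Figure D5:**
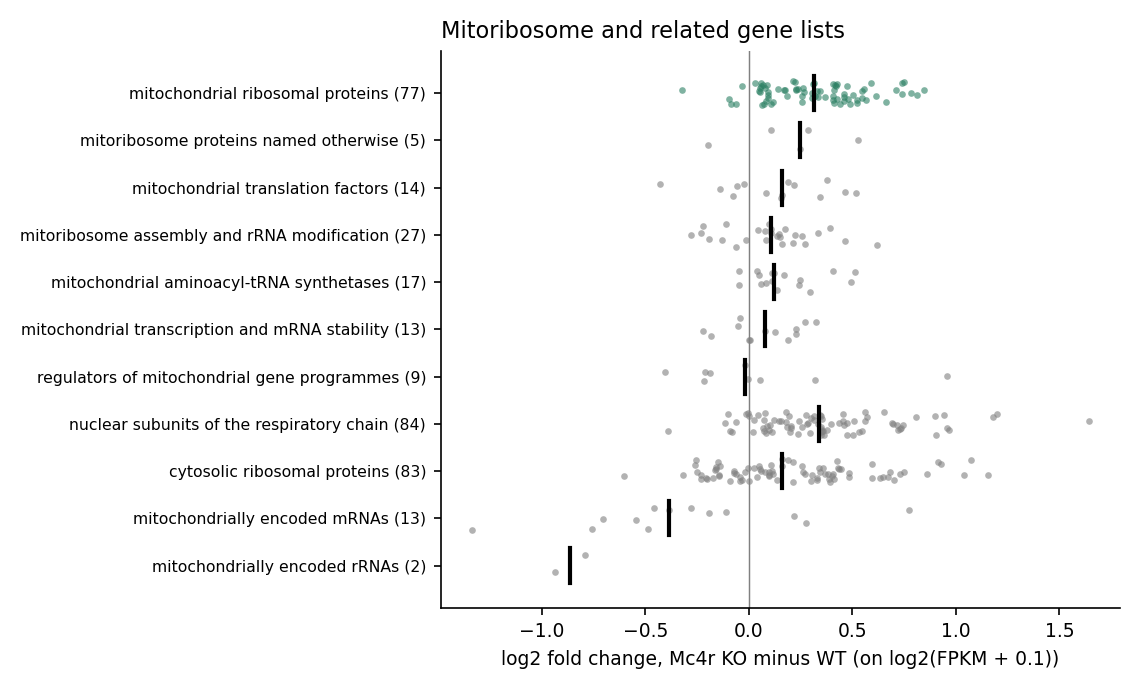
Log2 fold change (Mc4r KO minus WT, x axis) of every tested gene of the mitoribosomal protein list (green) and of the related lists (grey), with the number of genes in brackets and a black bar at the median. The medians are 0.32 for the mitochondrial ribosomal proteins, 0.34 for the nuclear respiratory subunits, 0.16 for the cytosolic ribosomal proteins, -0.38 for the mitochondrially encoded mRNAs and -0.86 for the rRNAs.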

How the data were processed

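Polyadenylated RNA from 6 mouse hearts was sequenced in paired ends. The authors filtered the reads, aligned them to mm10 with HISAT2 2.0.5 and counted them on genes with featureCounts; strand use was not given in the sources used here. The labels name heart in some fields and muscle in the titles, and the paper names left ventricle. The deposited unit is FPKM, which the authors computed from gene length and mapped reads. FPKM times length gave whole reads for 100% of the values (tolerance 0.05 reads), and 3 reads on a gene of 1 kb came to between 0.176 and 0.213 FPKM, for counting error only.

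Because FPKM are not counts, limma 3.58.1 (R 4.3.3) was fitted on log2(FPKM + 0.1) over all 18035 genes with a mean of at least 0.1 FPKM, with a mean-variance trend, two-sided p-values and Benjamini-Hochberg adjustment. A fold change on this scale is understated for low genes. Median-of-ratios factors were 1 in all libraries, so the FPKM were used as deposited. The deposited values thus already stood on a median-of-ratios scale and were not scaled to reads on genes alone. WT 1 and Mc4r KO 1 had 14767929 and 14691076 such reads, but 3 reads on 1 kb came to 0.213 and 0.193 FPKM. Calls required both an adjusted p under 0.05 and a log2 fold change beyond 0.75 in either direction. The fit was tested on simulated counts with the same dispersion for every gene. These lacked the differences in mitochondrial share and GC described for the real libraries, so that test does not show how the fit handles them.

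The members and lists were chosen with earlier results of these data known. Members named are those past the adjusted threshold, the 6 highest and 6 lowest log2 fold changes, the 5 highest and 3 lowest mean FPKM, 4 linked to cardiomyopathy, those whose place differs from the name with their paralogues, and those not tested. From each other list the 2 genes with the largest absolute log2 fold change are named. Neighbours in the genome were named after their values were seen. Exon overlap, 50-base words and neighbours come from GENCODE M21, which held 99.8% of the gene IDs and all 78 members, and start windows from RefSeq (GRCm38.p6); 9 members had no window. Alternatives were pseudocounts of 0.01 and 1, no filter, a mean of at least 1 FPKM, the FPKM as deposited, quantile scaling, scaling outside the mitochondrial chromosome, removal of the length or GC trend (lowess, span 0.3), no trend, array weights, a replicate block, limma voom on the recovered reads, protein-coding genes alone, and leaving out each library. Intervals use the moderated degrees of freedom of limma. Python 3.11.15 with matplotlib 3.10.9 drew the figures.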

Additional observations from a re-analysis of the deposited data

How the results depend on the processing

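Using the FPKM as deposited was the reported fit itself, since the scaling factors were 1. In the other 19 alternatives the median log2 fold change of the members was above that of all genes, by 0.226 to 0.373 (0.327 as reported), and between 51 and 75 of the 77 members were above 0. The number that passed the adjusted threshold was less steady. It was 1 as reported (0.582% of all genes) and 0 with a pseudocount of 1, no filter, quantile normalization, scaling outside the mitochondrial chromosome, removal of the length or GC trend, no mean-variance trend or the replicate block (between 0.061% and 0.699% of all genes in these fits). It was 23 with array weights (7 of them called), 13 with limma voom on the recovered reads (3 called) and 6 among protein-coding genes alone (2 called), where 6.37%, 4.52% and 3.4% of all genes passed the adjusted threshold and 2.41%, 1.74% and 1.51% were called. Leaving out 1 library gave between 0 and 26 members past the adjusted threshold and between 0 and 11 called. The high values belong to the fit without WT 3 (8.56% of all genes past the threshold, 3.5% called). Each fit without another library gave 0 members, and there between 0% and 0.0388% of all genes passed the threshold. The count higher at an unadjusted p under 0.05 lay between 33 and 47 in these fits (45 as reported; 7.81% to 15.4% of all genes), and was 23 with scaling outside the mitochondrial chromosome, where 26 members lay wholly higher (6.4% of all genes). The count lower at that threshold was 1 with array weights and between 0 and 1 without a library. Between 0 and 2 members lay wholly lower without a library (15.9% to 22.7% of all genes).

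The median log2 fold change of the members was 0.212 with quantile normalization and 0.12 with scaling outside the mitochondrial chromosome (0.316 as reported). For the genes named Mrpl it was 0.208 and 0.115 in these fits (0.307), and for the genes named Mrps 0.265 and 0.214 (0.405), with 0.292 after removal of the length trend, 0.302 after removal of the GC trend, 0.485 with array weights and 0.327 to 0.542 without a library. The causes were not tested. Same-numbered libraries did not deviate together (correlations -0.12, 0.04 and -0.06 over 11118 genes). With so few libraries per group, this cannot exclude that the mice were paired. With the replicate block, 40 members were higher at an unadjusted p under 0.05 and 0 passed the adjusted threshold. An edgeR test on recovered reads was planned and not run, since the deposited unit is FPKM, and voom used median-of-ratios factors.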

Other observations

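The deposited table also lists 5 processed pseudogenes of these genes, which the name rule did not take. Mrpl23-ps1 read 1.10, 2.52 and 3.54 FPKM in WT 1, 2 and 3 and 1.33, 0.908 and 1.40 FPKM in Mc4r KO 1, 2 and 3, with a log2 fold change of -0.80 (adjusted p = 0.303 by limma) and overlapping groups. Mrpl48-ps, Mrps36-ps1 and Mrps36-ps2 had between 2 and 18 reads per library and adjusted p-values of 0.726, 0.935 and 0.945. Mrps36-ps3 was listed at 0 in all libraries. These pseudogenes share sequence with their parent genes, so reads can be split between them.

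Among regulators of mitochondrial gene programmes, those whose binding motifs were searched in the start windows had log2 fold changes near or below 0: Nrf1 0.05 (adjusted p = 0.881), Yy1 -0.02 (adjusted p = 0.932), Gabpa -0.21 (adjusted p = 0.221) and Gabpb1 -0.19 (adjusted p = 0.574). Ppargc1a, the coactivator PGC-1α, averaged 14.03 FPKM in WT and 13.96 FPKM in Mc4r KO (adjusted p = 0.990). These genes were named after their values were seen, and no relation to the members was tested.

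Of the 14 translation factors, 5 were below 0, and the release factor Mtrf1 was the 1 of them lower at an unadjusted p under 0.05, with 4.58 FPKM on average in WT and 3.38 FPKM in Mc4r KO (log2 fold change -0.43, adjusted p = 0.0944), while the elongation factor Tufm stood at 78.03 FPKM in WT and 101.6 FPKM in Mc4r KO (log2 fold change 0.38, adjusted p = 0.0949). Both were named after their values were seen.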
